A study of Mus musculus with 10 samples.

Results

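The expression of 9 genes of the tumour necrosis factor (TNF) family was examined in skin of mice from a graft model of alopecia areata (AA) that were given vehicle or baricitinib, which inhibits JAK1 and JAK2, from the time of grafting. The genes were the ligands Tnf, Tnfsf10 and Tnfsf13b and the receptors Tnfrsf9, Tnfrsf4, Tnfrsf18, Tnfrsf1b, Cd40 and Fas. Every probe set whose platform annotation gave exactly 1 gene symbol, and gave one of these 9, was taken. This gave 18 probe sets, of 45037 tested in all, and 9 genes, of 18193 named on the array. All mice were C3H/HeJ animals grafted with skin of alopecic C3H/HeJ donors, a procedure after which recipients lose hair. From the time of grafting 5 mice received baricitinib and 5 received vehicle systemically, through implanted osmotic pumps, and skin was taken at week 12 for 1 array per mouse. The study's methods give the age of the recipients at grafting (young adult mice), whereas the labels give neither age nor sex. Ungrafted skin was not among the arrays, so that the reference level was that of grafted, vehicle treated skin. Arrays are called B1 to B5 (baricitinib) and V1 to V5 (vehicle), after the replicate numbers of the sample titles.

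Ligands of the TNF family are mostly trimeric proteins of immune cells, and their receptors fall into those with a death domain, which can start cell death, and those that bind TRAF adaptors and switch on NF-kB. The second kind includes costimulatory receptors of T cells and receptors by which antigen presenting cells are activated. In AA, T cells gather around the hair follicle in a setting of interferon signalling, and several family members are textbook interferon or NF-kB target genes.

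The 250 bases before the annotated start were read from RefSeq (mouse build GRCm38.p6) for 10 windows of 8 of the 9 genes, and are shown for 4 genes to let the letters of interferon and NF-kB motifs be seen next to the values that follow. Searched on both strands were GAAANNGAA, the core of the interferon-stimulated response element, TTCNNNGAA, the gamma-activated site bound by STAT factors, and GGNNTTTCC, a core of NF-kB sites. The first was found in 3 of the 10 windows (Tnfrsf1b, Tnfrsf4 and Tnfsf13b) and in 7.13% of all 32851 windows of this length. The second was found in 4 windows (Fas, Tnfrsf18, Tnfrsf1b and Tnfrsf9), against 7.02% of all, and the third in 1 (Tnfrsf9), against 4.93%. In the windows printed no match overlapped another. The windows of Tnf and Tnfsf10 held no match. Matches are in capitals, and they are a description of the letters, not of bound sites.
Tnfsf13b (chr8:10006383-10006632, plus strand, interferon-stimulated response element): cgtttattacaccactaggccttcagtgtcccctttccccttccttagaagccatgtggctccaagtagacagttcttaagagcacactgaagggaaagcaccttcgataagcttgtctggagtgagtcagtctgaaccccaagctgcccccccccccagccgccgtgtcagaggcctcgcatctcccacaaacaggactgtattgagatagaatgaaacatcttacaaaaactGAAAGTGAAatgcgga
Tnfrsf1b (chr4:145246871-145247120, minus strand, gamma-activated site, then interferon-stimulated response element read on the other strand): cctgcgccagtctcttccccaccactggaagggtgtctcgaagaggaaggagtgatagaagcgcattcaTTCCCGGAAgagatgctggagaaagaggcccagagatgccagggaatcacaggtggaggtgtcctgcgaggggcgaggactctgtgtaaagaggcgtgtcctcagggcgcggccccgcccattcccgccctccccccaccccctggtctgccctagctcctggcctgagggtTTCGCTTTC
Tnfrsf9 (chr4:150927749-150927998, plus strand, gamma-activated site, then NF-kB): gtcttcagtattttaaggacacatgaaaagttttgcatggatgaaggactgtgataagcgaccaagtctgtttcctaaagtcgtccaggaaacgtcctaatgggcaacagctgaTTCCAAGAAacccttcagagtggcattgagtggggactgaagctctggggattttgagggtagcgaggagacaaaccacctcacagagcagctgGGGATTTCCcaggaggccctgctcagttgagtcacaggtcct
Fas (chr19:34290409-34290658, plus strand, gamma-activated site): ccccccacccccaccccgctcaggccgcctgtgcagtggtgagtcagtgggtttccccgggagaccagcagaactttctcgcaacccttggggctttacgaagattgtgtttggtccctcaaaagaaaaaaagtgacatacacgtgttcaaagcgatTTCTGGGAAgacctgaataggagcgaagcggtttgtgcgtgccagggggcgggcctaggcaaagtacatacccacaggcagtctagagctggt
In Tnfsf13b the match began 16 bases before the start, and in Tnfrsf9 the NF-kB letters began 42 bases before it. Tnfrsf9 and Tnfsf13b each had a further annotated start whose window held no match.

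Values are log2 expression per probe set, on which a difference of -1 is a halving. V5 stood apart from the rest: it correlated with the other arrays at r = 0.697 to 0.729, against 0.946 to 0.994 among the other 9. The RNA quality gap, which is the mean 3' minus 5' value of the Gapdh and beta-actin control probe sets and widens when RNA is degraded, had a mean ± SD of 1.06 ± 0.08 log2 with baricitinib and 2.89 ± 1.40 with vehicle (n = 5 each, two-sided exact permutation p = 0.0317). V4, at 1.01, was the 1 vehicle array within the baricitinib range of 0.99 to 1.18. Keratinocyte markers, which define the labelled tissue, were high on every array (mean 11.95 to 12.89 log2). The study's methods dropped 1 vehicle array after quality control without naming it in the labels, so all 10 arrays were kept and values without V5 are given beside them.

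Of the 18 probe sets, 16 had a lower mean in baricitinib treated skin, with a median difference of -0.73 log2, whereas 55.4% of all tested probe sets were lower with a median of -0.07. By the brightest probe set of each gene, 7 of the 9 genes were lower, all but Tnfrsf18 and Fas, with a median of -0.74 (all genes, 49.7% lower and median 0.01). Without V5, 17 of the 18 were lower, and the median was -0.66. None of the 18 passed limma's test at an adjusted p of 0.05, and neither did any of the 45037 probe sets (0%), the smallest adjusted p being 0.230 among the 18 and 0.221 over all. At an unadjusted p under 0.05, 6 of the 18 were lower and 0 higher, against 5.62% and 9.21% of all probe sets. Without V5, 10 were lower and 0 higher, against 13.5% and 14.4%. Limma's array quality weights were lowest for V5 (0.029) and V4 (0.50) and 1.09 to 2.05 for V1 to V3. They were 1.36 to 1.56 for B2 to B5 but 5.43 for B1, so that the baricitinib mean leaned on that 1 mouse. With these weights, 5 were lower and 0 higher at an adjusted p of 0.05, against 10.6% and 10.9%. These 5 were Tnf, 1 probe set of Tnfrsf9, 2 of Tnfsf10 and 1 of Tnfsf13b. With the weights and V5 left out, a setting added after the data had been seen, 3 of them were lower and 0 higher, against 8.69% and 8.79%, while Tnf (adjusted p = 0.0572) and Tnfsf10 1439680_at (adjusted p = 0.0513) lost the call.

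**Figure D1:**
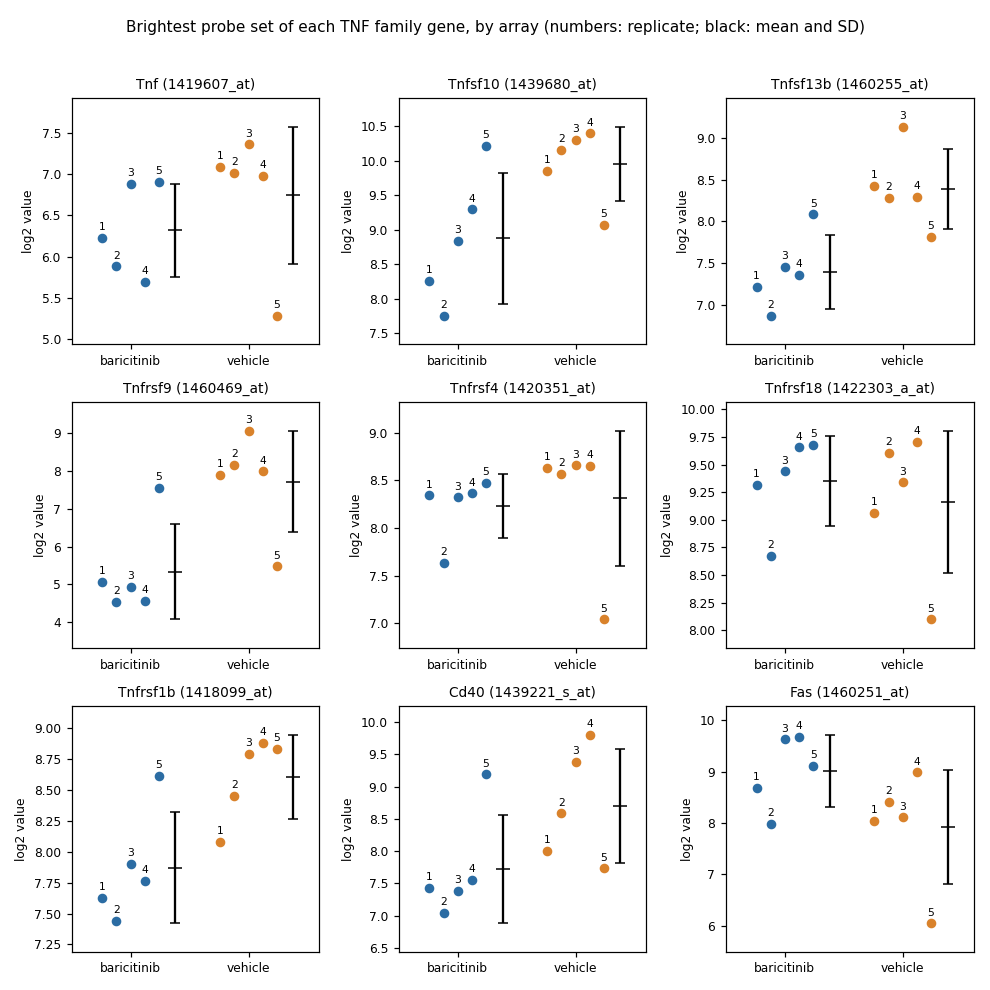
The brightest probe set of each of the 9 genes, in log2 on the vertical axis, for the 5 baricitinib (blue) and 5 vehicle (orange) arrays, with the replicate number over each point and the group mean and SD in black. B5 was the highest baricitinib array in 8 of the 9 panels and V5 the lowest vehicle array in 8 of the 9. The shares of all genes for which this held are not given here, so the counts are not a trait of the 9 genes.

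Among the ligands, Tnfsf13b, the B cell survival factor BAFF, showed the smallest unadjusted p of the 9 genes. Its main probe set (1460255_at) read 7.22, 6.87, 7.46, 7.36 and 8.09 log2 on B1 to B5 and 8.42, 8.28, 9.13, 8.29 and 7.82 on V1 to V5. Apart from B5 and V5, which crossed, every baricitinib value was below every vehicle value. The difference was -0.99 log2 (SE 0.28), 1.98-fold lower, with an unadjusted p of 0.006 and an adjusted p of 0.230 (limma). Without V5 it was -1.13 with an adjusted p of 0.074, and the groups then did not overlap. A pair of further Tnfsf13b probe sets, both under 5 log2 on average, were also lower. At 1445251_at the mean was 3.78 ± 0.25 against 4.69 ± 1.20 (SD, n = 5 each), where V5 at 6.73 was highest, and the difference of -0.91 became -0.40 without it. At 1458047_at it was 2.87 ± 0.42 against 3.33 ± 0.32.

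Tnfsf10 encodes the death ligand TRAIL, which interferons induce in many cells. Its brightest probe set (1439680_at) read 8.26, 7.76, 8.84, 9.30 and 10.21 log2 on B1 to B5 and 9.86, 10.16, 10.30, 10.40 and 9.07 on V1 to V5. B5 lay among the vehicle arrays, and V5 lay between B3 and B4. The difference was -1.08 log2 (SE 0.45), 2.12-fold lower, with an unadjusted p of 0.036 and an adjusted p of 0.312. The dimmer 1420412_at had the same order of groups, with 5.14, 4.92, 5.12, 5.61 and 7.24 on B1 to B5 and 6.84, 7.0, 7.28, 7.16 and 5.46 on V1 to V5. Here too B5 reached the vehicle values and V5 was below B4. The difference was -1.14 (SE 0.49, adjusted p = 0.323). The remaining 1459913_at averaged 8.25 ± 1.32 with baricitinib and 9.22 ± 0.71 with vehicle (SD, n = 5 each).

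Tnf itself, the cytokine that gives the family its name, differed less. Its 1 probe set (1419607_at) read 6.23, 5.88, 6.88, 5.70 and 6.91 log2 on B1 to B5 and 7.09, 7.02, 7.36, 6.98 and 5.29 on V1 to V5. V1 to V4 all lay above the baricitinib arrays, while V5 was the lowest of the 10. With all arrays the difference was -0.43 (95% interval -1.35 to 0.49, adjusted p = 0.547). Without V5 it was -0.79 (95% interval -1.38 to -0.20), with an unadjusted p of 0.014 and an adjusted p of 0.108.

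Of the receptors that costimulate T cells, Tnfrsf9 (CD137), which appears on T cells after activation, had the largest difference of the 18 probe sets. At 1460469_at it read 5.07, 4.55, 4.93, 4.57 and 7.55 log2 on B1 to B5 and 7.90, 8.15, 9.06, 7.99 and 5.48 on V1 to V5. B1 to B4 lay below all 5 vehicle arrays, B5 was just below V1, and V5 was far under the other vehicle arrays. The difference was -2.38 log2 (SE 0.74), 5.21-fold lower, with an unadjusted p of 0.009 and an adjusted p of 0.240. It was -2.94 without V5 (adjusted p = 0.073) and -2.94 without B5 (adjusted p = 0.151), and in both cases the groups did not overlap. The other probe sets of the gene averaged under 5 log2. At 1428034_a_at the means were 4.26 ± 0.48 and 4.98 ± 0.73 (SD, n = 5 each), with B5 at 5.09 above the 3.95 to 4.18 of the other baricitinib arrays. At 1421481_at they were 4.30 ± 0.08 and 4.45 ± 0.23, a difference of -0.16 whose 95% interval ran from -0.49 to 0.18.

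Tnfrsf4 (OX40) and Tnfrsf18 (GITR), which also mark regulatory T cells, did not show a difference of that size. Tnfrsf4 (1420351_at) read 8.34, 7.64, 8.32, 8.37 and 8.48 log2 on B1 to B5 and 8.64, 8.57, 8.66, 8.66 and 7.04 on V1 to V5. V1 to V4 lay close together and just above the baricitinib arrays, and V5 and B2 stood lower. The difference was -0.08 (95% interval -0.82 to 0.66, adjusted p = 0.890), and -0.40 without V5 (95% interval -0.78 to -0.03, adjusted p = 0.159). Tnfrsf18 (1422303_a_at) read 9.32, 8.68, 9.44, 9.65 and 9.68 on B1 to B5 and 9.06, 9.61, 9.34, 9.70 and 8.10 on V1 to V5. The groups overlapped over most of their range. The difference was 0.19 (95% interval -0.53 to 0.91, adjusted p = 0.728), and it changed sign to -0.08 without V5 (95% interval -0.57 to 0.42). Whether the differences of the 3 costimulatory receptors differ from each other was not tested.

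Tnfrsf1b encodes the TNF receptor TNFR2, which has no death domain and is found mainly on blood cells and endothelium. Its main probe set (1418099_at) read 7.63, 7.44, 7.91, 7.77 and 8.62 log2 on B1 to B5 and 8.08, 8.45, 8.79, 8.89 and 8.84 on V1 to V5. B5 was the only baricitinib array inside the vehicle range, and V5 was here not low but next to the highest. The difference was -0.74 (SE 0.25), 1.67-fold lower, with an unadjusted p of 0.015 and an adjusted p of 0.262. It was -0.68 without V5, and without B5 it was -0.93 and the groups did not overlap. The dimmer 1448951_at averaged 5.06 ± 0.20 and 5.43 ± 0.70 (SD, n = 5 each), and its difference of -0.37 became -0.08 without V5.

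Cd40, the receptor through which T cells activate B cells, dendritic cells and macrophages, was read by 3 probe sets. The suffix _s_at of the brighter pair marks probes that match more than 1 transcript. The brightest (1439221_s_at) read 7.43, 7.05, 7.39, 7.55 and 9.19 log2 on B1 to B5 and 8.0, 8.58, 9.39, 9.81 and 7.74 on V1 to V5. B1 to B4 lay below all 5 vehicle arrays, and B5 was exceeded by V3 and V4 alone. The difference was -0.98 (SE 0.50), 1.97-fold lower, with an unadjusted p of 0.077 and an adjusted p of 0.371. At 1449473_s_at the values were 6.99, 6.30, 6.93, 7.05 and 8.78 on B1 to B5 and 7.61, 8.05, 9.15, 9.20 and 8.27 on V1 to V5. The arrays took nearly the same order, and the difference was -1.25 (SE 0.48), 2.37-fold lower, with an unadjusted p of 0.025 and an adjusted p of 0.288. The dimmest, 1460415_a_at, averaged 5.88 ± 0.84 and 6.16 ± 0.99 (SD, n = 5 each), with B5 (7.27) and V4 (7.85) above the rest.

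Fas, the death receptor of Fas ligand, was the 1 gene with a higher mean in baricitinib treated skin by over 1 log2. Its probe set (1460251_at) read 8.69, 7.99, 9.63, 9.68 and 9.11 log2 on B1 to B5 and 8.04, 8.42, 8.11, 8.99 and 6.05 on V1 to V5. V5 was the lowest by a wide margin, and V1 to V4 lay within the baricitinib range, V4 close to the baricitinib mean. The difference was 1.10 (SE 0.54), 2.14-fold higher, with an unadjusted p of 0.067 and an adjusted p of 0.360. Without V5 it was 0.63 (95% interval -0.17 to 1.42).

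**Figure D2:**
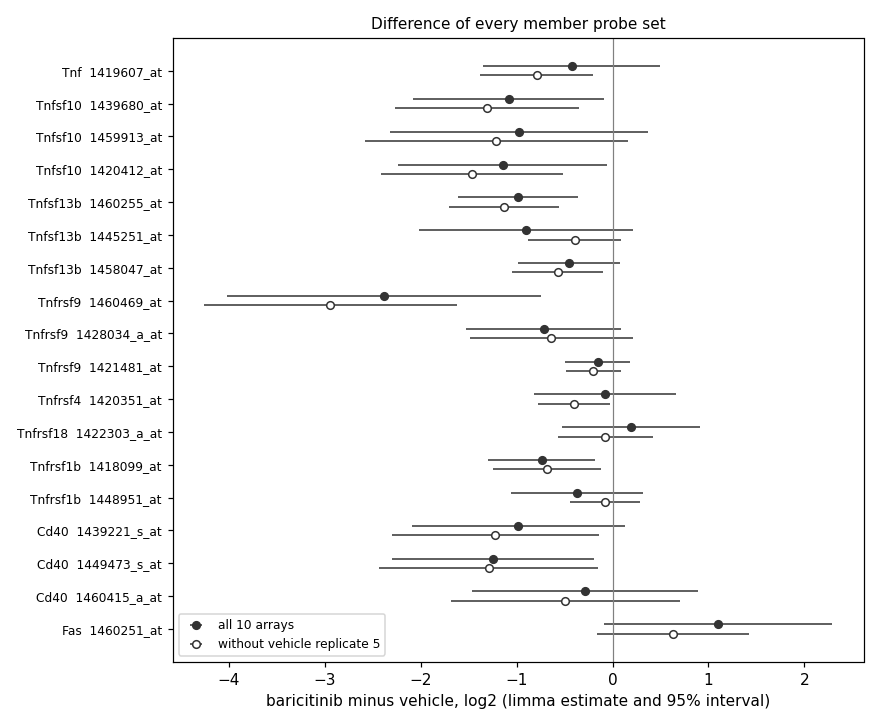
Difference of all 18 probe sets, baricitinib minus vehicle in log2 on the horizontal axis, with limma's 95% interval, with filled points for all 10 arrays and open points without V5. Most estimates lie left of 0, Tnfrsf9 1460469_at is farthest from it at -2.38, and Fas at 1.10 is farthest on the right.

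The 5 genes with several probe sets had the same sign at each of them. With all 10 arrays the baricitinib values of 0 of the 18 probe sets lay wholly below the vehicle values, against 2.03% of all probe sets. Without V5 this held for 4 (Tnf, Tnfrsf4, Tnfrsf9 1460469_at and Tnfsf13b 1460255_at), against 4.11%. Without B5 it held for 6 (a pair of Tnfrsf9 probe sets, a pair of Cd40, Tnfrsf1b 1418099_at and Tnfsf13b 1460255_at), against 3.39%. After cyclic loess it held for 1, against 2.04%.

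The RNA quality gap moved with the groups, and its part in these differences was not tested. V4, with the gap of a baricitinib array, was above every baricitinib array in 8 of the 9 genes, all but Fas, and for Tnfrsf9 it lay 2.65 log2 above the baricitinib mean. B5, at a gap of 1.05, was the highest baricitinib array in 8 of the 9, all but Fas. The shares of all genes with these orders of arrays are not given here.

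**Figure D3:**
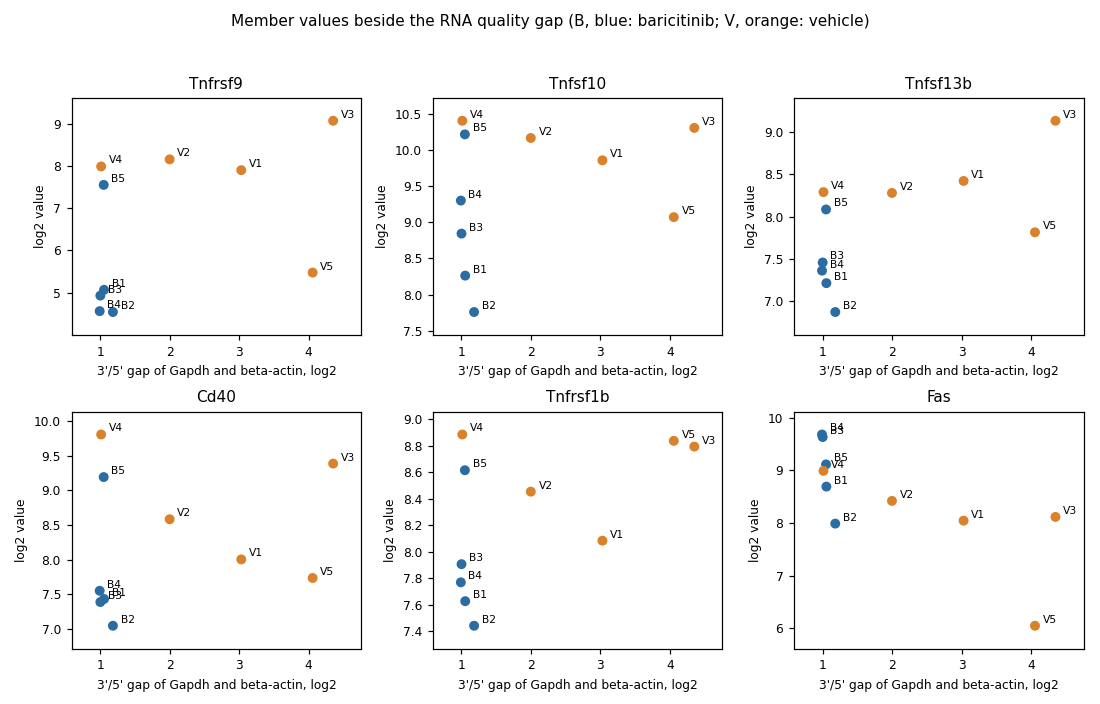
Level of 6 of the genes in log2 (vertical) beside the 3'/5' gap of the array in log2 (horizontal), with baricitinib arrays in blue and vehicle arrays in orange. V4 and the baricitinib arrays share a gap near 1, and V4 is above all 5 of them in 5 of the 6 panels, Fas being the exception.

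Some binding partners of the 9 genes were also read, a choice made after values had been seen. Tnfsf18, the ligand of Tnfrsf18, was not among the genes measured. Fasl, the ligand of Fas, ranged from 2.90 to 5.49 log2 with baricitinib and from 2.46 to 6.52 with vehicle, with B5 and V5 at the far ends, and a difference of -1.72 (unadjusted p = 0.054), or -2.44 without V5. Cd40lg was low, at 4.40 to 4.58 and 4.42 to 5.10, with a difference of -0.22. Tnfsf9, which binds Tnfrsf9, differed by 0.02, or -0.17 without V5, and Tnfsf4, which binds Tnfrsf4, by -0.53 at values under 4 log2. Tnfrsf10b, the mouse receptor of TRAIL, differed by -0.55, or -0.84 without V5. Tnfrsf13c, the main BAFF receptor of B cells, was 7.03 to 7.83 on V1 to V4 but 5.14 on V5, and its difference of 0.71 became 0.25 without V5. Tnfrsf1a, the widely expressed TNF receptor with a death domain, lay between 10.17 and 10.55 on 9 arrays and at 7.44 on V5, so that its difference of 0.54 became -0.05 without V5.

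Of 15 other TNF family ligands 11 were measured, and 9 were lower, 3 at an unadjusted p under 0.05 and 0 higher, with a median of -0.53 log2. Over all 18193 genes 6.22% were lower and 9.81% higher at that p, and 16.1% and 13.3% without V5, when 5 of the ligands were lower. Tnfsf11 (RANKL), which drives osteoclast formation, was 4.15 to 5.05 with baricitinib and 5.32 to 5.83 with vehicle, with no overlap of the groups. Its difference was -1.09 (SE 0.20, adjusted p = 0.221). Tnfsf8, the ligand of CD30, differed by -0.80 (-0.52 without V5) and Tnfsf4 by -0.53. Of 22 other receptors 21 were measured, 11 lower and 10 higher, with a median of -0.02, or -0.12 without V5. At an unadjusted p under 0.05, 0 were lower and 1 higher, or 2 and 3 without V5. Tnfrsf21, a death domain receptor, was 8.50 to 10.01 with baricitinib and 4.74 to 8.48 with vehicle, higher on each baricitinib array than on any vehicle array. Its difference of 1.74 became 1.03 without V5. Ltbr, the lymphotoxin beta receptor, differed by 0.96 and Tnfrsf8, which encodes CD30, by -0.41, and without V5 these became 0.53 and -0.24.

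Downstream of the receptors, 15 of 17 TRAF adaptors and death domain proteins were measured. Of these 9 were lower, 0 had an unadjusted p under 0.05, and the median was -0.15. Without V5, 7 were lower and 1 higher at that p, and the median was -0.45. Map3k14 (NIK), the kinase of the non-canonical NF-kB pathway, differed by -0.65, Birc3, an inhibitor of apoptosis that TNF induces, by -0.53, and Cflar, which blocks caspase-8, by 1.01. Cflar was at 7.74 on V5 and at 10.13 to 11.17 on the other arrays, and its difference was 0.44 without V5. Of 12 NF-kB subunits and inhibitors 10 were measured, 8 of them lower, 2 at an unadjusted p under 0.05, with a median of -0.28. Without V5, 6 were lower at that p, and the median was -0.56. Nfkbiz read 9.91 to 10.53 with baricitinib and 10.62 to 11.16 with vehicle without overlap, a difference of -0.56. Ikbkg (NEMO) differed by -0.73, with 9.22 to 9.63 on the baricitinib arrays. It was 9.35 on V4, within that range, and 10.10 to 10.76 on the other vehicle arrays. Nfkbie, an NF-kB inhibitor, differed by -1.0, or -1.63 without V5. All 13 TNF-induced genes were measured and 12 were lower, 2 at an unadjusted p under 0.05, with a median of -0.59. Without V5, 8 were lower at that p (median -0.82), and without B5 the median was -1.01. Cxcl2, a neutrophil chemokine, was 3.32 to 6.32 with baricitinib and 6.37 to 7.94 with vehicle, a difference of -2.90 in which B5 was nearest to the vehicle arrays. Sod2 differed by -0.42 and Cxcl1 by -1.15.

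Interferon-induced genes were measured for 11 of 12 listed, and all 11 were lower, 4 of them at an unadjusted p under 0.05, with a median of -1.72 log2. Without V5, 10 were lower at that p, with a median of -2.40. Oasl2 differed by -2.45, Ifit1 by -2.11 and Gbp3 by -1.92. The mean of the list was 6.93 to 8.33 on B1 to B4, 10.93 on B5, 10.41 to 11.17 on V1 to V4 and 7.31 on V5. B5 and V5 stood apart from their groups here as they did for Tnfrsf9 and Tnfsf10. The low values of V5 were not particular to these genes. Its list mean was 7.78 for NF-kB genes, against 9.40 to 9.73 on V1 to V4, and 7.26 for macrophage and monocyte markers, against 8.53 to 9.07. Not every list was low on V5, and B cell markers, at 5.51, lay within the 4.71 to 5.54 of V1 to V4.

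**Figure D4:**
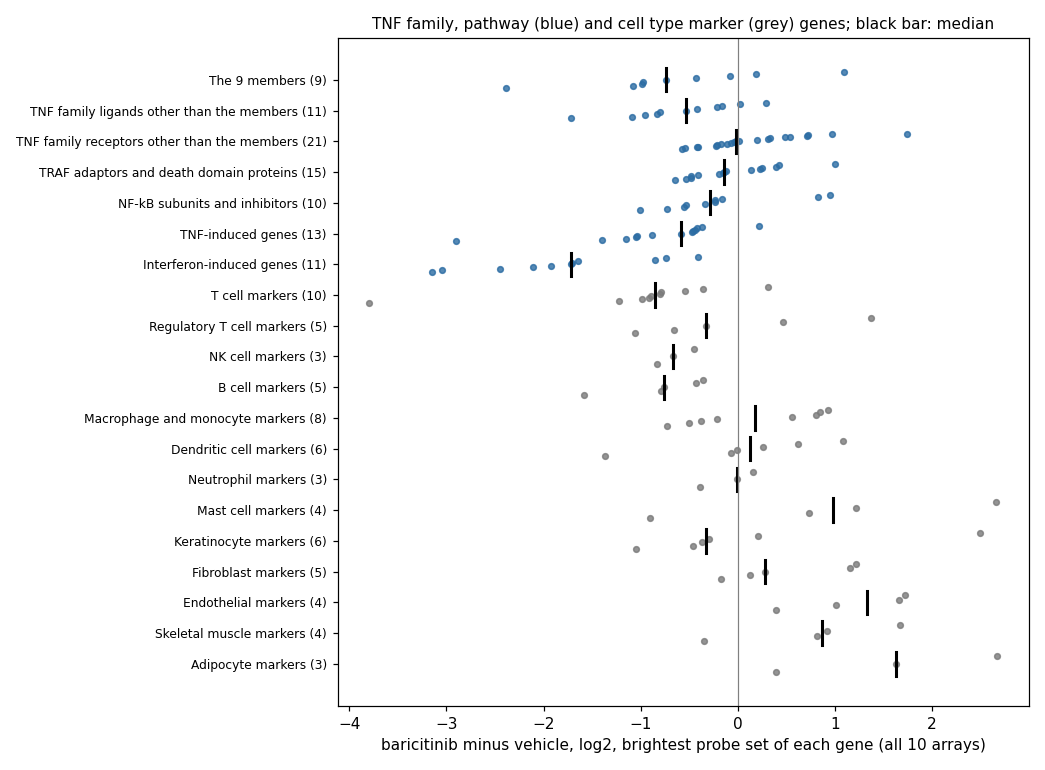
Difference of the brightest probe set of each gene, baricitinib minus vehicle in log2 over all 10 arrays (horizontal), by gene list with the number measured in brackets. The black bars are medians, at -0.74 for the 9 genes, -1.72 for interferon-induced genes and -0.85 for T cell markers.

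Markers of the cells that carry these receptors were in part lower as well. Of 12 T cell markers 10 were measured and 9 were lower, 5 at an unadjusted p under 0.05 (8 without V5), with a median of -0.85, with Cd5 at -1.22, Cd6 at -0.91 and Cd28 at -0.81. Their mean was 5.82 to 6.46 log2 on B1 to B4, 7.62 on B5, 7.63 to 8.25 on V1 to V4 and 5.96 on V5. B cell markers were lower in 5 of 5 (median -0.76) and NK cell markers in 3 of 3 (median -0.67). Regulatory T cell markers, the cells richest in Tnfrsf4 and Tnfrsf18, were lower in 3 of 5, with a median of -0.33. Among them Ikzf4 differed by -1.06, Foxp3 by 0.46 and Ikzf2 by 1.37. Foxp3 was at 4.17 on V5, and its difference was 0.11 without V5. Their mean was 6.09 to 7.50 with baricitinib and 6.29 to 7.17 with vehicle. In bulk skin, fewer cells of a type and less RNA per cell cannot be told apart, and the part of cell numbers in the differences of the 9 genes was not tested.

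Cells of the myeloid lineage make much of the Tnf and Tnfsf13b and carry Cd40, and their marker RNAs did not differ in one direction. Macrophage and monocyte markers were lower in 4 of 8 (median 0.17), or 5 of 8 without V5 (median -0.12), with Csf1r at -0.73 and Mertk at 0.81. Dendritic cell markers were lower in 3 of 6 (median 0.13), with Cd207 of Langerhans cells at 1.08 (0.68 without V5) and Itgax at -1.37 (-2.09 without V5). Neutrophil markers were lower in 2 of 3 (median -0.01), or 3 of 3 without V5 (median -0.55). Tissue markers differed as well. Medians were -0.33 for keratinocytes (4 of 6 lower), 0.28 for fibroblasts (1 of 5), 0.87 for skeletal muscle (1 of 4), 0.98 for mast cells (1 of 4), 1.33 for endothelium (0 of 4) and 1.63 for adipocytes (0 of 3). Among these lists Lep (2.67), Mcpt4 (2.66) and Krt15 (2.49) had the highest differences.

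The genes whose brightest probe sets varied most like each of the 9 over the 10 arrays are given by Pearson's r, as a description. The first value is r over all 10 and the second r without V5. For Tnfrsf9 they were Gpr132 (0.986 and 0.985), Ms4a4b and Morc1, and for Tnfsf10 they were Dtx3l (0.990 and 0.990), Gbp7 and Gbp3. For Tnfsf13b they were Serpinb1a (0.982 and 0.983), Phf11d and Tbk1, and for Cd40 they were Ccl17 (0.980 and 0.979), Pdcd1lg2 and Msr1. Tnfrsf1b varied most like Cd300ld (0.957 and 0.966), Hk3 and Ccr2, and Tnf most like Clec4n (0.974 and 0.965), Kcnd1 and Gpr34. Tnfrsf4 varied most like Mmp14 (0.979 and 0.938), Sdcbp2 and Mesp1, Tnfrsf18 most like H2-Eb1 (0.981 and 0.950), Fes and Vwa5a, and Fas most like Nkiras1 (0.992 and 0.977), Ifi207 and Tnip2. The genes named without a value had r between 0.952 (Ccr2) and 0.990 (Ifi207) over all 10 arrays.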

How the data were processed

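Skin RNA of 10 mice was amplified with NuGen reagents and read on Affymetrix arrays. The authors ran RMA on this experiment alone and deposited its log2 values, 1 per probe set and array. RMA aligns the arrays, whose means were 6.43 to 6.45 log2, so that an array of poor RNA need not show a lower mean. The spread over probe sets was not equal, with an SD of 2.28 log2 on V5 and 2.71 to 2.79 on the other arrays. Depth does not apply, and the number of arrays limits the precision. The table held 45101 probe sets, of which 64 controls were set aside. Of the 45037 tested, 34945 had 1 gene symbol, 932 several and 9160 none. Groups came from the sample titles.

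Baricitinib and vehicle were compared with limma 3.58.1 in R 4.3.3 (two-sided, Benjamini-Hochberg over all 45037, threshold 0.05, no filter), after the calculation was tested on simulated data. P-values measure the spread between these mice. A gene was represented by its brightest probe set. Every member probe set is given, in full where brightest or past an unadjusted p of 0.05. Of each list the 3 genes with the smallest p were named, or fewer where only examples are given. Lists held 164 genes, of which 147 were measured and 17 were not analysed here. The 9 genes and the lists were chosen with earlier results of these data known. Alternatives were a dim filter (mean above 5 log2), cyclic loess, array quality weights, a replicate block, other eBayes settings, 1 probe set per gene and each array left out. Replicate numbers carry no stated pairing, and the main fit used none.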

Additional observations from a re-analysis of the deposited data

Results flagged for a closer look

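By Dixon's criterion, single arrays stood far from the rest of their group of 5 in 7 of 36 groups of values. These groups were the 18 probe sets in 2 treatments. Chance meets the criterion in about 1 of 20 single groups. The 36 groups share the same arrays and are not independent, so this rate cannot judge the count of 7. Of the 7, 3 fell on B5 and 3 on V5. The share of all probe sets that meet the criterion is not given here. V5 was the lowest vehicle array for Tnf at 5.29 log2 (next 6.98), for Tnfrsf4 at 7.04 (next 8.57) and for Tnfsf10 1420412_at at 5.46 (next 6.84). B5 was the highest baricitinib array for Tnfrsf9 1460469_at at 7.55 (next 5.07), for Tnfrsf9 1428034_a_at at 5.09 (next 4.18) and for Cd40 1439221_s_at at 9.19 (next 7.55). B2 was the lowest baricitinib array for Tnfrsf4 at 7.64 (next 8.32).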

How the results depend on the processing

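The number of arrays limits the precision. No probe set passed the threshold with all arrays, whereas 9676 passed with array quality weights and 7869 with those weights and V5 left out, a setting added after the data had been seen. With arrays left out in turn 0 to 848 passed, 848 without V4, 12 without B5 and 0 without V5 or any other. With the replicate block 0 passed. After the group mean of each probe set was subtracted, same-numbered arrays correlated at -0.23 to 0.09. Only for replicate 2 was the same-numbered vehicle array the most alike. The labels state no pairing, and these values cannot exclude one. The count of the 18 probe sets with groups that did not overlap was 1 under cyclic loess and 0 to 6 with an array left out. Each of these was lower with baricitinib. Of all probe sets 2.04% were wholly lower under cyclic loess and 3.39% without B5, the setting that gave 6. The RNA quality gap differed by -2.30 to -1.47 log2 with an array left out. Its exact permutation p rose to between 0.0714 and 0.0794 without any 1 of the baricitinib arrays. By the same test p fell to 0.00794 without V4, the setting in which 848 probe sets passed. It stayed at 0.0317 without any 1 of the other vehicle arrays. Signs turned for 5 dim or little different probe sets, and the cause was not tested. Tnfrsf18 was -0.10 under cyclic loess, -0.061 with weights, -0.10 with weights and V5 left out, and -0.075 to 0.36 with an array left out. Tnfrsf9 1421481_at was 0.042 under cyclic loess, and Tnfrsf1b 1448951_at 0.023 with weights and V5 left out. Tnfrsf4 ranged from -0.40 to 0.066 and Cd40 1460415_a_at from -0.63 to 0.14 with an array left out. The other 13 kept their sign under every alternative tried.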
